A study of Mus musculus with 6 samples.

Results

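The genes described here make cholesterol, sense it, and move it into, within and out of the cell. They were chosen as a list of 31 named genes, of which 25 had at least 1 peak among the 10818 gene names of the authors' deposited table. These 25 genes held 156 of its 55449 peaks, and no peak carried a second gene name. No peak was listed for Hmgcs1, Pmvk, Idi1, Hsd17b7, Ebp and Sc5d, so these 6 genes were not tested.

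The study mapped RNA sites of ZFP36L2 in MLTC-1 cells, a mouse Leydig tumour line, by eCLIP. In eCLIP, ultraviolet light links a protein to the RNA it touches, an antibody recovers the protein, and the attached RNA fragments are sequenced. An antibody against ZFP36L2 gave 2 immunoprecipitation libraries and rabbit IgG gave 1, with 2 inputs for ZFP36L2 and 1 input for IgG, the input being a background of RNA bound by any protein. All 6 libraries came from the same line after crosslinking at 254 nm and 400 mJ per cm2, with no other treatment or genotype named. The IgG arm therefore rests on 1 library.

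The deposited values are 1 log2 fold change of ZFP36L2 over IgG per peak, with its p-value and adjusted p. Its direction follows the table's name. There is no column for a library, so no value per library, no error of a fold change and no sequencing depth can be given. A positive value is read here as more signal with ZFP36L2 than with IgG at that site. How the value was scaled and whether inputs entered it are not given, so 0 need not mark equal signal. The value concerns recovered RNA and is not the level of the transcript. A call needs an adjusted p under 0.05. With it, a peak is enriched where its log2 fold change reaches 1 and depleted where it reaches -1. Of the Leydig cell markers Star, Cyp11a1, Hsd3b1, Cyp17a1, Lhcgr, Insl3, Nr5a1, Prlr, Hsd3b6 and Inha, 6 of 10 had a peak, while Hsd3b1, Cyp17a1, Insl3 and Hsd3b6 had none. Among markers of other cells, 2 of 6 for Sertoli cells, 2 of 4 for germ cells and 4 of 4 for macrophages had one.

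Cells build cholesterol from acetyl-CoA through mevalonate, farnesyl diphosphate and squalene. When sterols are scarce, the SCAP protein escorts SREBP transcription factors out of the endoplasmic reticulum and they switch on the synthesis genes, whereas INSIG proteins hold SCAP back when sterols are plentiful. Leydig cells use cholesterol as the starting material of testosterone, and take much of it from lipoproteins and from stored esters. ZFP36L2 is a zinc finger protein best known for binding AU-rich elements in the 3′ UTRs of mRNAs and promoting their decay.

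Of the 156 peaks, 3 (1.92%) were enriched and 12 (7.69%) were depleted. Over the whole table the shares were 2.22% enriched and 5.44% depleted. The 3 enriched peaks lay in 3 genes, Fdft1, Osbp and Abca1. The 12 depleted peaks lay in 5 genes, Insig1, Dhcr7, Mvd, Srebf2 and Srebf1, and Insig1 alone held 6 of them. By gene, 3 of 25 (12%) had an enriched peak against 5.04% of all gene names with a peak, and 5 of 25 (20%) had a depleted one against 17.3%. The median number of peaks per gene was 5 in these 25 genes and 3 over all gene names, which gives each of them more chances of a call. No gene was called in both directions, but the share of all gene names called in both was not counted, so this has no background beside it. The enriched share of peaks and the depleted share of genes were near the background. The median log2 fold change of the 156 peaks by the authors' deposited table was -0.72, against -1.06 over all peaks. Values below 0 made up 106 of the 156 (67.9%), against 76.2% of all peaks.

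**Figure D1:**
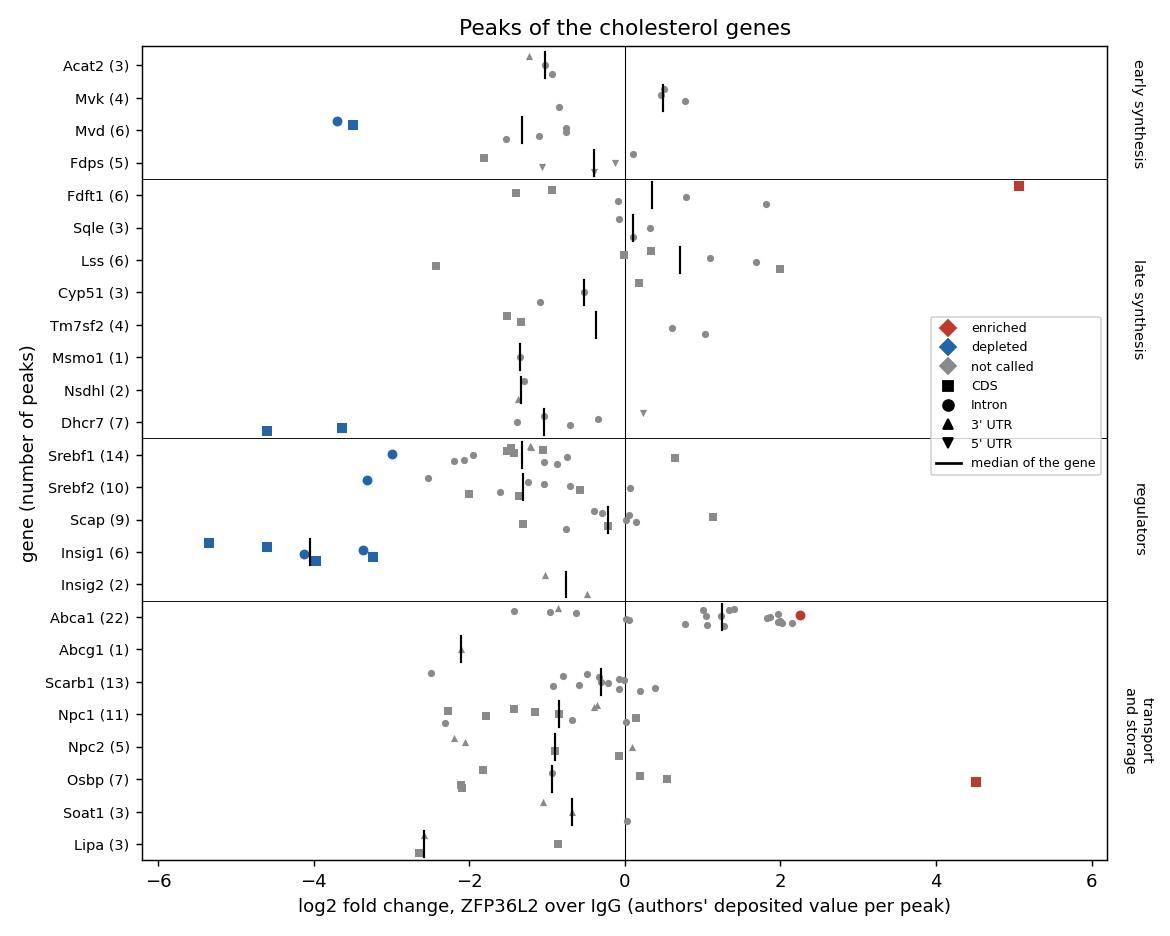
Log2 fold change of ZFP36L2 over IgG (horizontal axis, authors' deposited values) for each of the 156 peaks, by gene and role, with the number of peaks in brackets. Colour shows the call, marker shape the transcript region and the black bar the median of the gene. All 6 Insig1 peaks sit between -5.35 and -3.23, whereas the single peaks of Fdft1 at 5.07 and Osbp at 4.52 stand far to the right of the other peaks of their genes.

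The regulators of the pathway carried most of the depleted peaks. They held 8 depleted peaks among 41 (19.5%, against 5.44% of all peaks) and 0 enriched ones, against 2.22% of all peaks. The depleted peaks lay in 3 of the 5 genes (60%, against 17.3% of all gene names). These 5 genes had a median of 9 peaks, against 3 over all gene names, which gives each more chances of a call. Without Insig1, left out after seeing the data, 2 of 35 peaks (5.71%) were depleted, near the share of all peaks. With Insig1 included, the median log2 fold change of the 41 peaks by the authors' deposited table was -1.22, against -1.06 over all peaks. Of the 41 values, 35 (85.4%) were below 0, against 76.2% of all peaks. Relative to the median of all peaks, 19 of the 41 lay above and the rest below. The group's depleted count is thus mostly that of Insig1, with 1 depleted peak each in Srebf1 and Srebf2.

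Insig1 (ENSMUSG00000045294.11, plus strand of chromosome 5, mm10) encodes the anchor that retains SCAP in the endoplasmic reticulum, and is itself switched on by SREBP. Its 6 peaks form 3 pairs of touching peaks. The first pair covers 62 nucleotides of coding sequence from 28071637 to 28071698, only 225 nucleotides after the RefSeq start of the gene. Its log2 fold changes by the authors' deposited table were -5.35 (adjusted p = 2.3e-09) and -4.60 (adjusted p = 4.2e-08). The value of -5.35 is the lowest of all 156 peaks. The second pair, called intronic, runs from 28073875 to 28073914, with -3.36 (adjusted p = 0.0048) and -4.12 (adjusted p = 4.8e-05) by the authors' deposited table. The third pair lies in coding sequence from 28075135 to 28075173, at -3.23 (adjusted p = 0.00091) and -3.97 (adjusted p = 2.4e-05) by the authors' deposited table. All 6 were thus depleted, over introns and coding sequence alike, and none lay in the last 3489 nucleotides of the gene. Of 3122 gene names with 6 or more peaks, 9 had every peak depleted, and Insig1 was among them. RefSeq also places the uncharacterised gene Gm35223 over these positions.

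Insig2, the second INSIG gene, had a different record. Its 2 touching peaks lay in the 3′ UTR, from 121304534 to 121304560 on chromosome 1, with values of -1.02 and -0.48 by the authors' deposited table, both at an adjusted p of 1. No Insig2 peak in coding sequence or introns was listed, so the INSIG genes cannot be compared at matching regions.

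Srebf2 encodes SREBP-2, the transcription factor that drives cholesterol synthesis genes. It had 10 peaks on chromosome 15, with log2 fold changes from -3.31 to 0.07 by the authors' deposited table, 9 of them below 0. The depleted one, at 82150178 to 82150208, is intronic and 2.92 kb from the gene's start, with -3.31 (adjusted p = 0.0051) by the authors' deposited table. The peak that touches it on its 5′ side, at 82150147 to 82150177, had -2.53 (adjusted p = 0.15) by the authors' deposited table and was not called. The remaining 8 peaks, spread over about the whole gene, had an adjusted p of 0.87 or 1.

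Srebf1 encodes SREBP-1, the family member that also drives fatty acid synthesis genes. Its 14 peaks on chromosome 11 ranged from -2.99 to 0.64 by the authors' deposited table, with 13 below 0. The depleted peak, at 60208374 to 60208437, is intronic, 64 nucleotides long, and stood at -2.99 (adjusted p = 0.017) by the authors' deposited table. It is the depleted peak with the weakest support among these genes. Next to it in the gene, the intronic peaks from 60209436 to 60209496 had -1.95 and -0.74, and those from 60211206 to 60211280 had -2.07 and -2.19, by the authors' deposited table, and none was called. The 2 peaks in the 3′ UTR stood at -1.22 and -1.21 there, with an adjusted p of 1.

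Scap, the SREBP escort, was not called at any of its 9 peaks. They ranged from -1.31 to 1.13 by the authors' deposited table, 5 below and 4 above 0, all with an adjusted p of 1. Its highest value, 1.13, and its lowest, -1.31, were both in coding sequence on chromosome 9, at 110377660 to 110377714 and 110379785 to 110379837.

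The SREBP genes also host microRNAs. Srebf2 hosts Mir33, whose products are known to repress Abca1, and Srebf1 hosts Mir6921 and Mir6922. The mature sequences (RefSeq, GRCm38.p6) are shown because both arms of the Mir33 hairpin belong to the same locus as the Srebf2 peaks, with the seed, bases 2 to 8, in capitals.
mmu-miR-33-5p: gUGCAUUGuaguugcauugca
mmu-miR-33-3p: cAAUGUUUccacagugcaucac
The Mir33 arms are chr15:82198127-82198147 and chr15:82198167-82198188, plus strand, and their seeds differ from each other. No Srebf2 peak overlapped the Mir33 hairpin. The nearest, in coding sequence at 82199685 to 82199729, was 1495 nucleotides away, with -0.58 (adjusted p = 1) by the authors' deposited table. No Srebf1 peak overlapped its hairpins either, the nearest being 150 nucleotides from Mir6921 and 843 from Mir6922.

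The early enzymes, from acetyl-CoA to farnesyl diphosphate, held 2 depleted peaks among 18 (11.1%, against 5.44% of all peaks) and 0 enriched ones, against 2.22%. The 4 genes that had peaks held a median of 4.5 each, against 3 over all gene names. The depleted peaks lay in 1 of these 4 genes (25%, against 17.3% of all gene names). Both belonged to Mvd, mevalonate diphosphate decarboxylase, which makes isopentenyl diphosphate. They touch at the edge of an exon on chromosome 8, the 61 coding nucleotides from 122436973 to 122437033 with -3.49 (adjusted p = 6.8e-05) and the 15 intronic nucleotides from 122436958 to 122436972 with -3.70 (adjusted p = 0.00087) by the authors' deposited table. The other 4 Mvd peaks, all intronic and between 122437298 and 122437777, had -0.75, -0.76, -1.10 and -1.53 by the authors' deposited table, each with an adjusted p of 1. The depleted stretch thus stood apart from its neighbours in the same gene.

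The remaining early enzymes were not called. Fdps, farnesyl diphosphate synthase, had 5 peaks from -1.81 to 0.10 by the authors' deposited table, of which the lowest was coding, at 89094359 to 89094400 on chromosome 3. Its 3 peaks in the 5′ UTR had -0.13, -1.07 and -0.39 there. Mvk, mevalonate kinase, had 4 intronic peaks from -0.84 to 0.78, and 3 of them were above 0, by the authors' deposited table. Acat2, the cytosolic thiolase that joins acetyl-CoA units, had 3 peaks from -1.23 to -0.93 by the authors' deposited table.

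The late enzymes, from squalene to cholesterol, held 1 enriched and 2 depleted peaks among 32 (3.12% and 6.25%, against 2.22% and 5.44% of all peaks). Of the 8 genes with peaks, 1 had an enriched peak and 1 a depleted one (12.5% each, against 5.04% and 17.3% of all gene names). The median number of peaks in these 8 genes was 3.5, against 3 over all gene names. Fdft1 (ENSMUSG00000021273.11) encodes squalene synthase, the enzyme that commits farnesyl diphosphate to sterols. Its enriched peak, 61 coding nucleotides at 63156677 to 63156737 on the minus strand of chromosome 14, had 5.07 (adjusted p = 1.3e-10) by the authors' deposited table. This value exceeded those of 99.8% of coding peaks in the table, and the peak ranked 401 of the 1231 enriched peaks by p-value. The other 5 Fdft1 peaks were not called and lay between -1.40 and 1.82 by the authors' deposited table. Among them, 2 touching coding peaks from 63163383 to 63163429 had -0.93 and -1.40 there, on the other side of 0 from the enriched coding peak. The highest of the 5 was intronic, at 63169127 to 63169140, with 1.82 (adjusted p = 0.38) by the authors' deposited table.

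Dhcr7, the reductase of the last step in one branch of the pathway, had 7 peaks, 2 of them depleted. The depleted peaks touch and cover 54 coding nucleotides from 143847454 to 143847507 on chromosome 7, at 96.3% and 96.4% of the gene's length. Their values by the authors' deposited table were -3.63 (adjusted p = 4.8e-05) and -4.60 (adjusted p = 1.1e-08). Upstream, 4 intronic peaks ranged from -1.38 to -0.34 and a 5′ UTR peak at 143830330 to 143830381 had 0.24 by the authors' deposited table, all with an adjusted p of 1. The depletion in Dhcr7 was thus called at 1 stretch near the 3′ end and nowhere else in the gene.

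Lss, lanosterol synthase, had 6 peaks spread widely without a call, from -2.43 (adjusted p = 0.44) to 1.99 (adjusted p = 0.72) by the authors' deposited table. Both extremes were coding, at 76544496 to 76544532 and at 76550667 to 76550733 on chromosome 10. Sqle, squalene epoxidase, had 3 intronic peaks close to 0, at -0.07, 0.32 and 0.11 by the authors' deposited table. Cyp51, the lanosterol demethylase, had 3 peaks from -1.09 to 0.18, and Tm7sf2, a sterol C14 reductase, had 4 from -1.51 to 1.03, by the authors' deposited table. Msmo1, the sterol methyl oxidase, had 1 peak at -1.35, and Nsdhl, the dehydrogenase that follows it, had 2 at -1.30 and -1.37, by the authors' deposited table. All of these had an adjusted p of 1 apart from the Lss extremes.

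**Figure D2:**
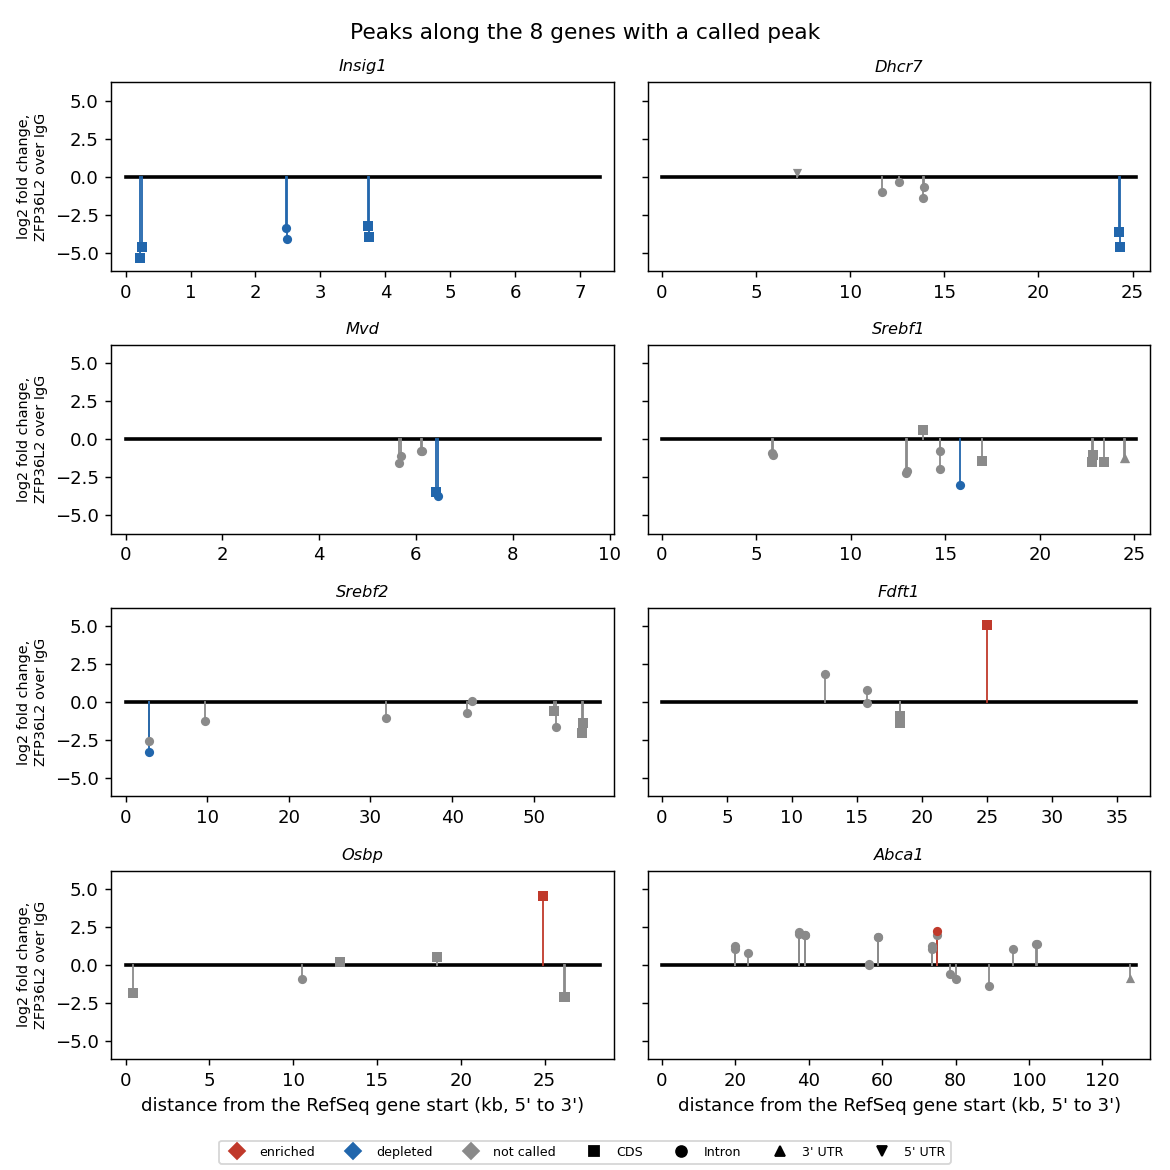
Log2 fold change of ZFP36L2 over IgG (vertical axis, authors' deposited values) against the distance of each peak from the RefSeq start of its gene in kb, read 5′ to 3′, for the 8 genes with a called peak. The black line is the gene, colour shows the call and marker shape the transcript region. Depleted peaks occupy 3 places along Insig1 but a single place each in Dhcr7, Mvd, Srebf1 and Srebf2, and the enriched peaks of Fdft1 and Osbp are the only called ones in their genes, whose next highest values are 1.82 and 0.54.

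The genes of efflux, uptake, trafficking and storage held 2 enriched peaks among 65 (3.08%, against 2.22% of all peaks) and 0 depleted ones, against 5.44% of all peaks. The enriched share of peaks was near that of all peaks. By gene, 2 of 8 had an enriched peak (25%, against 5.04% of all gene names) and 0 a depleted one, against 17.3%. These 8 genes had a median of 6 peaks, against 3 over all gene names. Osbp (ENSMUSG00000024687.11) encodes the oxysterol-binding protein, which exchanges cholesterol between the endoplasmic reticulum and the Golgi. Its enriched peak, 62 coding nucleotides at 11990721 to 11990782 on the plus strand of chromosome 19, had 4.52 (adjusted p = 4e-08) by the authors' deposited table. It lies at 88.1% of the gene's length and exceeded 99.6% of coding peaks in log2 fold change. The next peaks downstream, a touching coding pair from 11992001 to 11992061, had -2.11 (adjusted p = 0.85) and -2.09 (adjusted p = 0.58) by the authors' deposited table. The 4 peaks upstream ranged from -1.82 to 0.54 there, with an adjusted p of 1. Osbp thus had 1 enriched coding site and 5 other coding peaks that were not called.

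Abca1, the pump that loads cellular cholesterol onto apolipoprotein A-I, had 22 peaks, the most of these genes, and 21 of them were intronic. The enriched one covers 21 nucleotides at 53084966 to 53084986 on chromosome 4, with 2.25 (adjusted p = 0.044) by the authors' deposited table. It is the called peak with the weakest support of all, and it ranked 1212 of 1231 enriched peaks. The 6 nucleotides that touch it, at 53084960 to 53084965, had 1.97 (adjusted p = 0.24) and were not called. Beyond that site, the intronic values were mostly positive. Of the 21 intronic Abca1 peaks, 18 lay above 0 and 20 above the median of all peaks, with a median of 1.27 by the authors' deposited table. The median over the 70 intronic peaks of the other genes was -0.69, and over all intronic peaks of the table it was -1.31. Peaks of 1 gene share their transcript, so these 21 values are not independent, and 20 of them were not called. The single 3′ UTR peak of Abca1 had -0.86 (adjusted p = 1) by the authors' deposited table. Abcg1, the pump that passes cholesterol to HDL, had 1 peak, in the 3′ UTR, at -2.11 (adjusted p = 0.93) there.

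Scarb1, the HDL receptor that supplies steroidogenic cells with cholesterol esters, had 13 intronic peaks and no other. They ranged from -2.49 to 0.39 by the authors' deposited table, with a median of -0.30. The lowest, 10 nucleotides at 125277968 to 125277977 on chromosome 5, had -2.49 (adjusted p = 0.24), while the peak touching it had -0.49 (adjusted p = 1), by the authors' deposited table. This gap of 2.0 was the widest within any of the 50 touching pairs, whose median gap was 0.34. Touching peaks thus mostly carried similar values, but gaps between peaks that do not touch were not measured beside them.

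The lysosomal genes of this set were not called. Npc1 and Npc2 encode the membrane and the soluble protein that export cholesterol from lysosomes, and Lipa encodes the lipase that frees it from esters. Npc1 had 11 peaks from -2.31 to 0.15, with 9 below 0, and Npc2 had 5 from -2.19 to 0.09, by the authors' deposited table. Lipa had 3, at -2.58, -0.86 and -2.64 by the authors' deposited table, and its gene median of -2.58 was the lowest after Insig1. The adjusted p of the Lipa peaks was 0.40, 1 and 0.32. Soat1, which esterifies cholesterol for storage, had 3 peaks from -1.05 to 0.03 with an adjusted p of 1 by the authors' deposited table. The 2 lower ones, called 3′ UTR, lie past the RefSeq end of the gene, whereas the other 154 peaks of the set lie inside their RefSeq genes.

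The peaks just outside the call were few. Of the 141 uncalled peaks, 4 had an unadjusted p under 0.05, in Srebf2, Abca1, Scarb1 and Lipa. Uncalled values spanned -2.64 to 2.15 by the authors' deposited table, while the smallest called value in size was 2.25. An adjusted p of 1 applied to 117 of the 156 peaks.

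**Figure D3:**
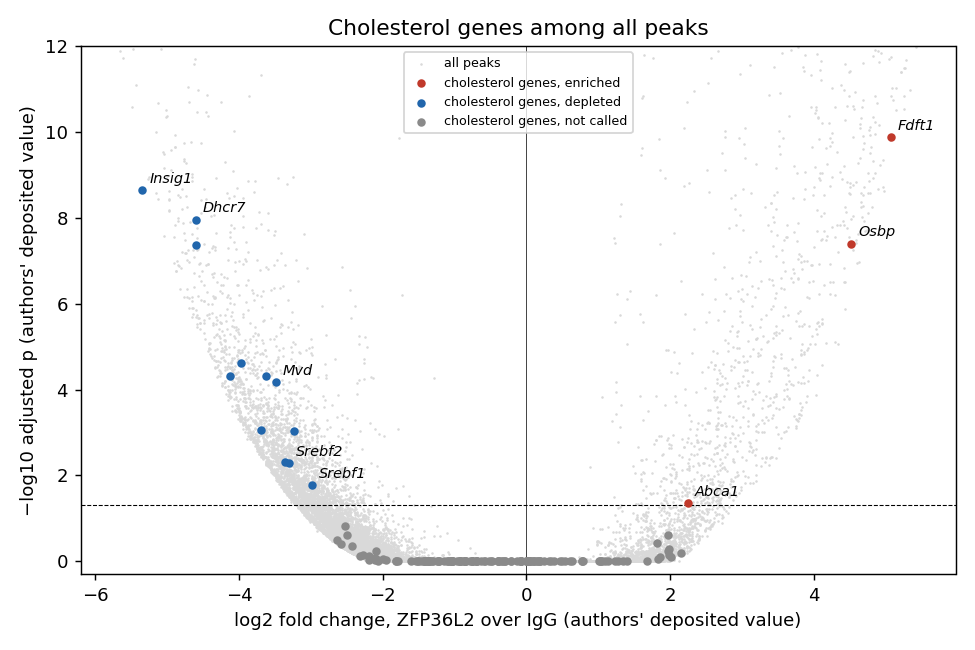
Adjusted p on the −log10 scale (vertical axis) against log2 fold change of ZFP36L2 over IgG (horizontal axis), both the authors' deposited values, for all peaks in light grey and the 156 peaks of cholesterol genes in colour. The dashed line is an adjusted p of 0.05, and the axis ends at 12, above which 362 peaks lie, none of them of a cholesterol gene. Each named point is the best-supported peak of its gene, with Fdft1, Osbp and Abca1 on the right and Insig1, Dhcr7, Mvd, Srebf2 and Srebf1 on the left.

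The transcript regions of these peaks were set beside those of the table. Introns held 91 of the 156 (58.3%, against 42.3% of all peaks), coding sequence 45 (28.8%, against 37.0%), 3′ UTRs 16 (10.3%, against 13.6%) and 5′ UTRs 4 (2.56%, against 2.21%). None of the 4 peaks in 5′ UTRs was called, beside 3.18% enriched and 5.78% depleted among all such peaks. Coding peaks included 2 enriched (4.44%, against 2.35% of all coding peaks) and 7 depleted (15.6%, against 3.74%). Of these 7, 4 were in Insig1, 2 in Dhcr7 and 1 in Mvd. Intronic peaks included 1 enriched (1.10%, against 2.17%) and 5 depleted (5.49%, against 7.04%). No tests were made of these shares, since touching peaks and peaks of 1 gene are not independent.

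The 3′ UTR, where ZFP36 proteins are best known to bind, held no called peak in these genes. Its 16 peaks came from 10 genes, Abca1, Abcg1, Acat2, Insig2, Lipa, Npc1, Npc2, Nsdhl, Soat1 and Srebf1. They ranged from -2.58 to 0.09 by the authors' deposited table, and 15 of 16 were below 0. Relative to the median of all peaks, 8 were above and 8 below. In the whole table, 1.46% of 3′ UTR peaks were enriched and 4.83% depleted. A count of 0 among 16 peaks cannot be told apart from these shares.

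The 5 genes with depleted peaks were also examined at their promoters, because SREBP, NF-Y and Sp1 are known to act together on many sterol-regulated genes. The 250 bases before each RefSeq start (GRCm38.p6) were searched on both strands for TCACNCCAC, a form of the sterol regulatory element, for CCAAT, the NF-Y box, and for GGGCGG, the Sp1 box. RefSeq windows were at hand for 25 of the 31 genes (33 windows, some genes having several starts). These are not the same 25 genes as those with a peak. Fdft1, Fdps, Sqle, Abcg1, Scarb1 and Npc1 had no window and were not searched. CCAAT occurred in 33.8% of all 32851 windows and in 23 of the 33, and GGGCGG in 32.7% of all windows and in 25 of the 33. By gene, each of these 2 boxes occurred in 22 of the 25 genes searched. All 5 genes with depleted peaks, Insig1, Dhcr7, Mvd, Srebf1 and Srebf2, had both boxes within their windows, as did many of the uncalled genes. Dhcr7 and Srebf1 have several windows, and not each of these holds both boxes. The share of all genes or windows with both boxes was not counted, so this has no background beside it. TCACNCCAC occurred in 1.05% of all windows and, among the 25 genes with windows, in Hmgcs1 only. The windows of Insig1, Mvd and Srebf2 are shown as examples of these shared boxes, with both boxes and their reverse complements in capitals and no overlap between boxes.
Insig1, chr5:28071162-28071411, plus strand: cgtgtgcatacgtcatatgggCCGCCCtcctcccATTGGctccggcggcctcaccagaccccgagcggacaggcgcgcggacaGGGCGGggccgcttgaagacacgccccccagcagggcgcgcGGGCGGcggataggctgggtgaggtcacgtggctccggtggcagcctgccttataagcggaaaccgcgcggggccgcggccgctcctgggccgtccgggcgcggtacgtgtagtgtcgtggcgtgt
Mvd, chr8:122443423-122443672, minus strand: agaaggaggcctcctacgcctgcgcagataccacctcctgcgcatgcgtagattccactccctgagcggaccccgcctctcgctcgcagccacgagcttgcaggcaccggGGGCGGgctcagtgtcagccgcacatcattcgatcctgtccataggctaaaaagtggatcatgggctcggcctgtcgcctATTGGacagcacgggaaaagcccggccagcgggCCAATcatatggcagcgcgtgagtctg
Srebf2, chr15:82147019-82147268, plus strand: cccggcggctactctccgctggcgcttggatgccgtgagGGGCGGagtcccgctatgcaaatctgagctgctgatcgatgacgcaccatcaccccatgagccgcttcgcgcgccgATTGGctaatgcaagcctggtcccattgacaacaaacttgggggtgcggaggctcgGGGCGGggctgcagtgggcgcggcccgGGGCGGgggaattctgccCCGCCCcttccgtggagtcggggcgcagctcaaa
Insig1 had 1 CCAAT and 3 GGGCGG, Mvd 2 and 1, and Srebf2 1 and 4. These windows are DNA before the transcript and no peak lies in them, so they describe the genes and not a binding site of ZFP36L2.

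Further genes of the pathway were taken from lists drawn up from textbook knowledge, with earlier results of these data known. Of 137 such genes, 115 had a peak, 9 of them (7.83%) an enriched one and 21 (18.3%) a depleted one, beside 5.04% and 17.3% of all gene names. The median number of peaks per gene was 5 in these genes and 3 over all gene names. By peak, 23 of 857 (2.68%) were enriched and 40 (4.67%) depleted, against 2.22% and 5.44% of all peaks. The depleted share was thus near the background both by gene and by peak. In the machinery of sterol sensing and of degradation at the endoplasmic reticulum, 0 of 20 genes with a peak had an enriched one, against 5.04% of all gene names. A depleted one was found in 5 (25%, against 17.3%), and 9 of their 121 peaks (7.44%) were depleted, against 5.44% of all peaks. The median number of peaks per gene was 5 in these 20 genes too, against 3 over all gene names. Nfyc, an NF-Y subunit, had 4 depleted peaks of 8, the lowest at -4.75 (adjusted p = 6.5e-08) by the authors' deposited table. Mbtps2, the protease that makes the second cut in SREBP, was depleted in 1 of 11 peaks at -3.16 (adjusted p = 0.00093), and Ubxn8, an adaptor of endoplasmic reticulum degradation, in 2 of 2, by the authors' deposited table.

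Sterol transport proteins had calls in both directions. Of 31 genes with a peak, 4 had an enriched one (12.9%, against 5.04% of all gene names) and 7 a depleted one (22.6%, against 17.3%). Both kinds occurred in 2 of them, a share that was not counted over all gene names. The median number of peaks per gene was 5 here, against 3 over all gene names. By peak, 12 of 270 (4.44%) were enriched and 17 (6.30%) depleted, against 2.22% and 5.44% of all peaks. Lrp1, a large endocytic receptor of lipoproteins, had 3 of 54 peaks enriched, the best at 4.04 (adjusted p = 1.5e-12) in coding sequence, by the authors' deposited table. Gramd1b, which carries plasma membrane cholesterol to the endoplasmic reticulum, had 7 enriched and 2 depleted among 53 peaks. Osbpl8, an OSBP relative, had 1 of each among 15, its enriched coding peak at 3.82 (adjusted p = 1.1e-07) by the authors' deposited table. Lamp1, a lysosomal membrane glycoprotein, was depleted in 8 of 8 peaks. The best of them, which starts and ends at the same base, 13174431 on chromosome 8, had -4.57 (adjusted p = 5.2e-08) by the authors' deposited table. Vldlr, the VLDL receptor, was depleted in 2 of 9 peaks, the better one in the 3′ UTR at -4.73 (adjusted p = 6.9e-07) there.

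**Figure D4:**
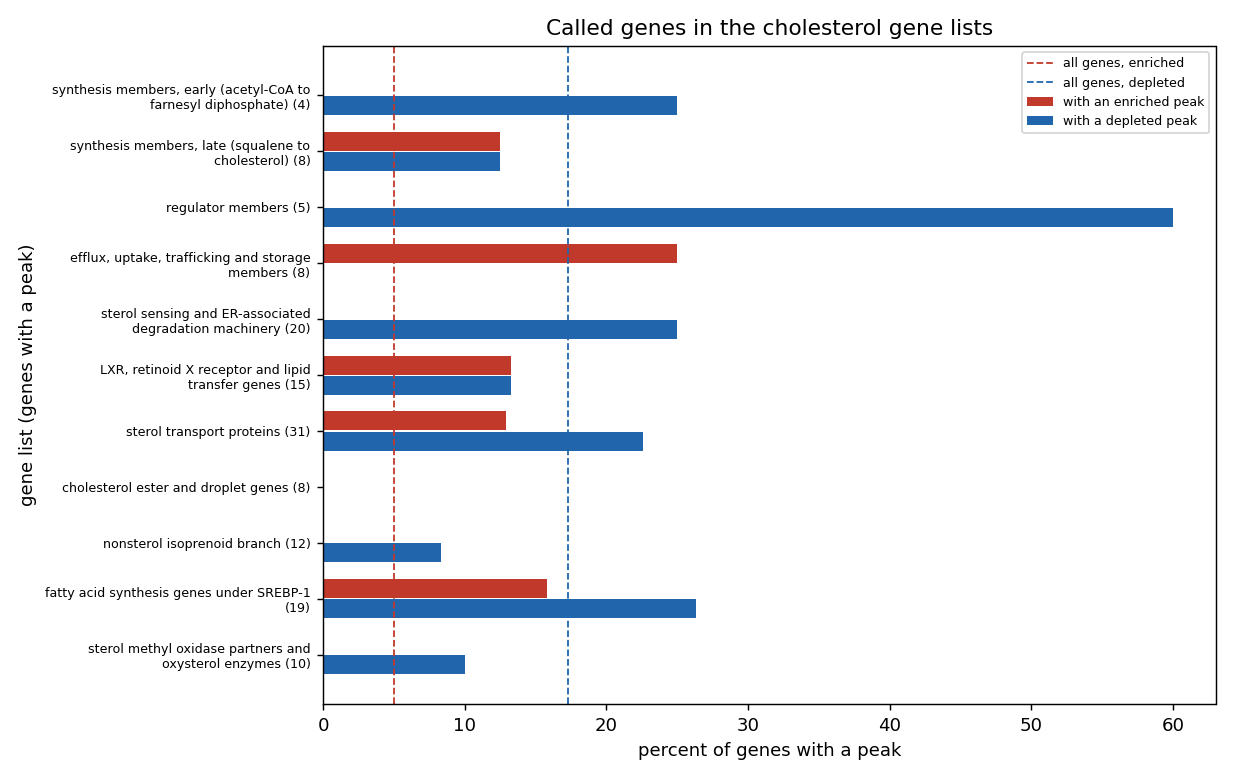
Percent of genes with a peak that had at least 1 enriched peak (red) or depleted peak (blue), for the 4 roles of the cholesterol genes and the other pathway lists, with the number of genes with a peak in brackets. Dashed lines mark the shares over all gene names, 5.04% enriched and 17.3% depleted. The regulators stand at 60% depleted from 3 of 5 genes, and transport and storage genes at 25% enriched from 2 of 8 with no depleted one. The median number of peaks per gene was 9 and 6 in these roles, against 3 over all gene names.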

How the data were processed

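The authors deposited 1 table with a row per peak. Its fold change is deposited as a log2 value, and its p-value and adjusted p-value as −log10 values, per the file headers. Per the submitters' processing notes, DESeq2 1.34.0, STAR 2.7.7a, cutadapt 3.2 and UMI-tools 1.1.1 were used with build mm10. The sources used here do not give how peaks were called, whether libraries were pooled, whether inputs entered the fold change, how it was scaled or which test gave the p-values. With 0 columns that name a library, the depth is unknown, and nothing says that libraries came from separate cultures.

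Peaks were taken by gene name, starts were turned to 1-based positions, and p-values were converted from −log10 and used as deposited (Python 3.11.15, pandas 2.3.3). A Benjamini-Hochberg adjustment over all 55449 peaks, tested on simulated data, came within 0.0099 of the deposited adjusted p-values in −log10 units. The planned motif count within peaks was not made, as sequence under the peaks was not used here, and plans for count tables did not apply. Gene spans and promoters are those of RefSeq, GRCm38.p6. The members, lists and thresholds were chosen with earlier results of these data known. By rule, every member was accounted for, and up to 4 called genes per other list and direction could be named. Alternatives were stricter thresholds, centring on the median of all peaks, recomputed adjusted p, merging of touching peaks, 1 peak or value per gene, and leaving out Abca1 or Insig1. Some called genes of the further pathway lists are not reported here by name.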

Additional observations from a re-analysis of the deposited data

How the results depend on the processing

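All 15 called peaks kept their call when the adjusted p was recomputed. The recomputed values came within 0.0099 of the deposited ones in −log10 units, so this does not test the calls either way. Centring log2 fold changes on the median of all peaks moved every value up by 1.06 and left the deposited p-values as they were, so it could not end a call whose value is at least 2.25 in size and does not test these calls. At an adjusted p under 0.01, the enriched peaks numbered 2, without Abca1, and the depleted peaks 11, without Srebf1, while 1.90% and 3.36% of all peaks were called. A log2 fold change of at least 2 left 3 enriched and 12 depleted peaks, while 2.03% and 5.42% of all peaks were called. With no called value under 2.25 in size, that threshold could not remove a call. Merging touching peaks turned the 12 depleted peaks into 7 stretches of 106. The peaks of other genes were not merged, so these stretches have no background. Leaving out Insig1, which was added after seeing the data, left 6 depleted peaks among 150, and 2 among the 35 of the regulators (5.71%). Over all peaks the depleted share was 5.44%. The median of -0.72 over the 156 peaks became 0.34 after centring, -0.85 with 1 value per gene, -1.21 over 65 exonic peaks, -0.30 over 91 intronic peaks, -0.86 without Abca1 and -0.68 without Insig1. The side of 0 on which uncalled peaks lie thus depends on the scaling, which the sources used here do not describe. No paired analysis was possible because the table holds no values per library, and for the same reason no library could be left out. Since IgG had 1 library, the antibody and that library cannot be told apart.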

Other observations

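Branches that leave the cholesterol pathway, or run beside it, also carried called peaks. Among fatty acid synthesis genes under SREBP-1, 3 of 19 genes with a peak had an enriched one (15.8%, against 5.04% of all gene names) and 5 a depleted one (26.3%, against 17.3%). These genes had a median of 9 peaks, against 3 over all gene names, and by peak 3 of 177 (1.69%) were enriched and 7 (3.95%) depleted, below the 2.22% and 5.44% of all peaks. Acly, which makes cytosolic acetyl-CoA for both fatty acids and sterols, had 1 of 12 peaks enriched, at 5.56 (adjusted p = 3e-20) in coding sequence, by the authors' deposited table. Fasn, the fatty acid synthase, had 1 enriched intronic peak at 4.83 (adjusted p = 3e-14) and 1 depleted coding peak at -3.15 (adjusted p = 1.4e-05) among 10 by the authors' deposited table. Elovl1, a fatty acid elongase, had an enriched coding peak at 3.20 (adjusted p = 0.00093) there. Tecr, the reductase of fatty acid elongation, was depleted in 3 of 14 peaks, and Acss2, which makes acetyl-CoA from acetate, in 1 of 6. Acaca, the acetyl-CoA carboxylase, was depleted in 1 of 2.

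In the nonsterol isoprenoid branch, 0 of 12 genes with a peak had an enriched one (against 5.04% of all gene names) and 1 a depleted one (8.33%, against 17.3%). None of 8 genes of cholesterol ester and lipid droplet handling was called at any of 41 peaks, where 2.22% enriched and 5.44% depleted over all peaks would amount to few calls. Among partners of the sterol oxidases and oxysterol enzymes, Cyb5r3, the cytochrome b5 reductase, was the 1 of 10 genes with a call (10% depleted, against 17.3% of all gene names), depleted in 2 of 5 peaks. Among LXR and lipid transfer genes, 2 of 15 had an enriched peak (13.3%, against 5.04% of all gene names) and 2 a depleted one (13.3%, against 17.3%). Of their 147 peaks, 8 (5.44%) were enriched and 3 (2.04%) depleted. The median number of peaks in these 15 genes was 4, against 3 over all gene names. Apoe, the lipid-carrying apolipoprotein, had 3 of 5 enriched, the best at 3.47 (adjusted p = 7.6e-08) in coding sequence, by the authors' deposited table. Nr1d1, the heme-binding repressor of the clock, was depleted in 2 of 9 peaks, and Abca2, a lipid transporter, in 1 of 4.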
